A study of Drosophila melanogaster with 4 samples.

Results

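Translation factors and aminoacyl-tRNA synthetases were followed in an array comparison of Drosophila melanogaster embryos with and without dSAP18. Members were selected by name: genes whose current symbol starts with eIF, eEF or eRF (the exon junction gene CG7483 left out), or is a three-letter amino acid code followed by RS, with the suffix -m for mitochondrial enzymes. A value was required on at least 1 array of each biological replicate. The rule left 53 genes, measured by 72 spots, of 5752 genes tested in all. They comprised 36 translation factors and 17 synthetases. The names alone matched 86 genes of the current gene table, of which 74 had a spot. Values in 1 replicate only were found for 10 of these, no value at all for 11, and no spot was named for the other 12. The 12 without a named spot included eIF2alpha, eIF2gamma, eEF1alpha1 and eEF2, so these central factors were not analysed here.

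Mutant embryos had the genotype w1118;dsap18 117/Df(3R)sbd 45. The allele is null and was made by mobilising the P element EP(3)3462, and the deficiency, a Bloomington stock, removes dsap18 on the other chromosome. Control embryos carried these same chromosomes plus a dsap18-HA transgene, so both channels of every array held RNA from embryos lacking both endogenous copies. Embryos of either kind were collected whole at 0 to 24 h, from flies kept at 25 °C, and were dechorionated. The promoter of the transgene is not given in the sources used here. There were 4 arrays, made of 2 biological replicates from different RNA extractions, each hybridised on 2 arrays with the dyes Cy3 and Cy5 exchanged, and n is therefore 2. A control label of replicate 1, on the array with the mutant in Cy3, puts the transgene on chromosome 2, whereas the labels of the other 3 arrays put it on X.

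Protein synthesis starts when the eIF4 proteins bind the capped end of an mRNA and recruit the small ribosomal subunit, which carries eIF3 and the initiator tRNA delivered by eIF2. Elongation factors then bring each charged tRNA and move the ribosome on, and release factors end the chain at a stop codon. Synthetases attach each amino acid to its tRNA, in the cytoplasm and in the mitochondria. The classes used here follow the names, and synthetases without the suffix -m are called cytoplasmic. No LysRS-m or GlyRS-m was in the gene table, and whether LysRS or GlyRS also serves the mitochondria was not examined. In the early fly embryo many of these transcripts come from the mother, and zygotic transcription takes over later.

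Each value is the deposited log ratio of a spot, taken as log2. The ratio is likely mutant over rescue, since the series text names the mutant as the sample, and a positive value would then stand for more transcript in the mutant. The direction is not stated, and with the opposite one all signs given here turn. For each gene the spots were averaged, then the arrays of a replicate, and limma asked whether the average of both replicates differed from 0, with Benjamini-Hochberg adjustment over the 5752 genes and a threshold of 0.05. Errors are the SD of the 2 replicate means. In whole embryos a change in the number of cells or in the mix of ages cannot be told apart from a change of transcript per cell. Swapped arrays of a replicate correlated across genes at r = 0.84 in replicate 1 and 0.92 in replicate 2, against 0.74 between replicates, whether the mutant was in Cy3 or in Cy5. Over all genes the ratios had an SD of 0.28 in replicate 1 and 0.48 in replicate 2, and each array gave values for 6537 to 7976 spots.

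Few genes of the translation machinery passed the test: 3 of the 53 members did so, AsnRS with a negative ratio and LysRS and eIF3i with positive ones. This was 5.66% of members, where 22.8% of all genes passed, 11.6% on the negative and 11.2% on the positive side. No member differed by more than 1.5-fold, as 546 of all genes did. The median log2 ratio over members was -0.01 (-0.05 in replicate 1 and 0.03 in replicate 2), beside 0.02 over all genes, and 28 members were negative and 25 positive. The median size of the ratio was 0.18 for members and 0.23 for all genes. At an unadjusted p under 0.05 there were 9 members (17.0%) and 2022 of all genes (35.2%). A mean ratio had to reach 0.41 in size to pass, and the 95% intervals of the members reached 0.31 to 0.33 to either side of the mean. Changes smaller than this in the 50 members that did not pass, whose means ran from -0.37 to 0.40, were not detectable with 2 replicates. The calls rest on variance pooled over genes: tested 1 gene at a time, 0 of all genes passed, with 461 at an unadjusted p under 0.05.

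**Figure D1:**
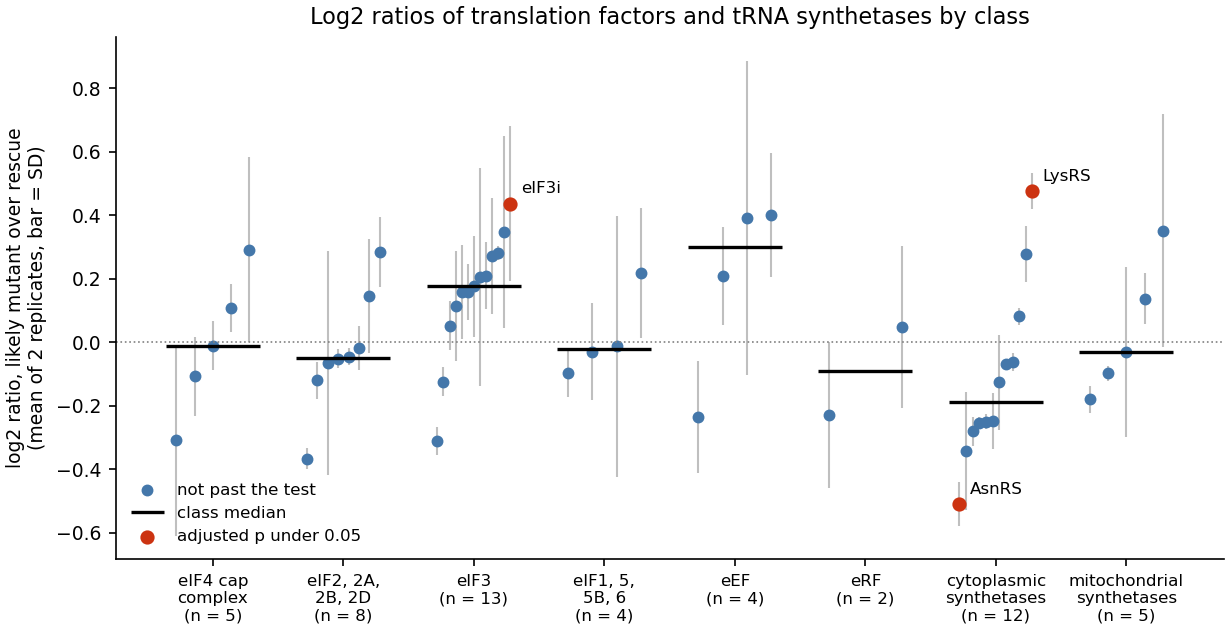
Mean log2 ratio of each of the 53 genes (points, with the SD of 2 replicates as bars) by class, on an axis of likely mutant over rescue, with black lines at the class medians. The 3 genes past the test stand at the ends of the eIF3 and cytoplasmic synthetase classes, and the class medians run from -0.19 for cytoplasmic synthetases to 0.30 for elongation factors.

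Among the cytoplasmic synthetases, the enzymes for asparagine and lysine lay at opposite ends. AsnRS (NCBI gene 35194) had log2 ratios of -0.36 and -0.56 on the arrays of replicate 1 with the mutant in Cy3 and in Cy5, and of -0.57 and -0.55 on those of replicate 2. All 4 arrays were negative and 3 of them nearly equal. Its mean was -0.51 ± 0.07, a 1.42-fold difference (95% interval -0.82 to -0.20, limma adjusted p = 0.0141). LysRS (NCBI gene 31904) had ratios of 0.37 and 0.50 in replicate 1 and 0.64 and 0.39 in replicate 2, in the same order of dyes. Its mean was 0.48 ± 0.06, a 1.39-fold difference the other way (95% interval 0.16 to 0.79, limma adjusted p = 0.0222). In both genes the 4 arrays kept clear of 0. With only the mutant-in-Cy3 arrays the AsnRS call was lost (limma adjusted p = 0.0670) and the LysRS call was kept (limma adjusted p = 0.0432). Over the alternatives tested with limma, the adjusted p ran from 0.000699 to 0.0670 for AsnRS and from 0.00161 to 0.0432 for LysRS. These ranges leave out turning the sign of the mutant-in-Cy5 arrays, which cancels any ratio that swapped arrays share. A gene-wise test passed neither gene (adjusted p = 0.557 for each).

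The other 10 cytoplasmic synthetases did not pass, and 8 of them had a negative mean. LeuRS, which charges leucine tRNAs, was at -0.27 and -0.15 in replicate 1 and -0.45 and -0.50 in replicate 2, with a mean of -0.34 ± 0.19 (limma adjusted p = 0.110). SerRS was at -0.38 and -0.12 in replicate 1 and at -0.31 on the 1 array of replicate 2 that gave a value, with a mean of -0.28 ± 0.05. The enzymes for tryptophan, glycine and arginine formed a close group: TrpRS averaged -0.26 ± 0.02, GlyRS -0.25 ± 0.02 and ArgRS -0.25 ± 0.09, and each was negative on all 4 arrays. CysRS (-0.13 ± 0.15), GlnRS (-0.07) and HisRS (-0.06) were closer to 0. On the positive side were IleRS, with 0.29 and 0.39 in replicate 1 and 0.22 on 1 array of replicate 2 (mean 0.28 ± 0.09), and TyrRS (0.08 ± 0.03), which was positive on the 2 arrays with the mutant in Cy3 and negative on the other 2.

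As a class, 9 of 12 cytoplasmic synthetases had a negative and 3 a positive mean, and each of the 12 kept its sign in both replicates. Their median was -0.19, at -0.22 in replicate 1 and -0.13 in replicate 2. The 2 that passed make up 16.7% of the class, a share below that over all genes. Across the 12 genes the replicate means correlated at r = 0.91, beside 0.74 across all genes. This describes 12 genes measured on the same arrays and carries no test. AlaRS and ValRS had values in 1 replicate only, ThrRS had spots without a value, and no spot was named for AspRS or MetRS.

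**Figure D2:**
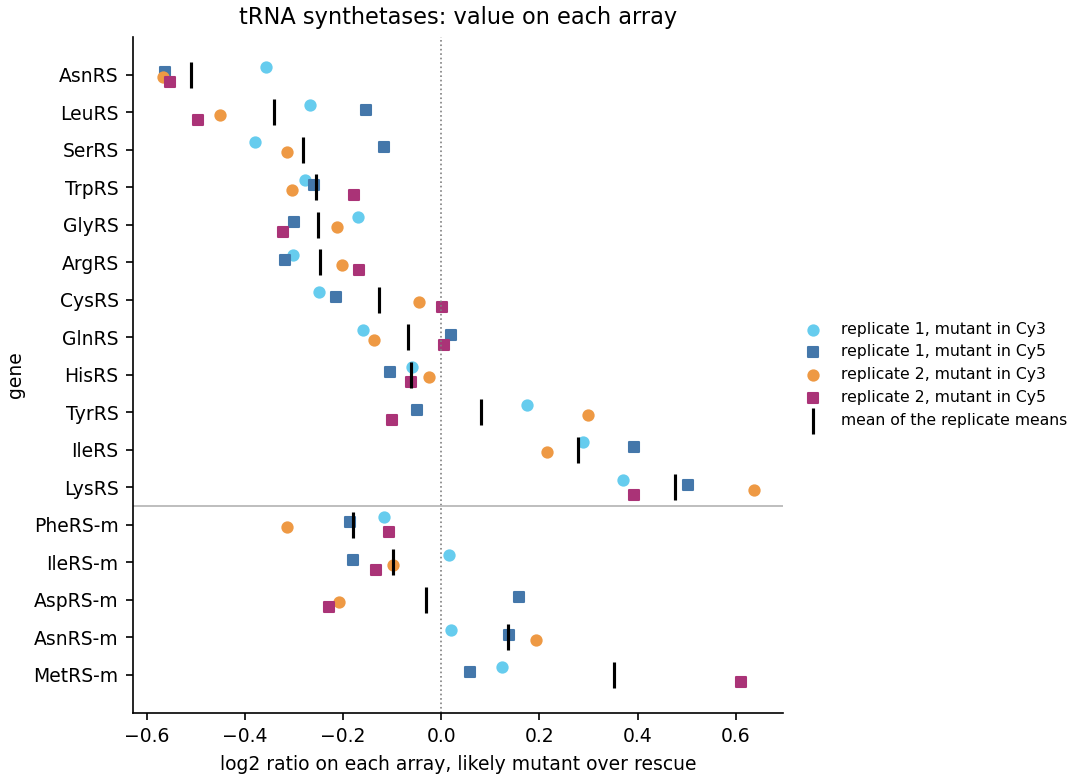
Log2 ratio of the 17 synthetases on each array (circles for the mutant in Cy3, squares for the mutant in Cy5, blue shades for replicate 1, orange and purple for replicate 2), with the mean as a black bar. The grey line parts the 12 cytoplasmic enzymes from the 5 mitochondrial ones. AsnRS lies left of 0 and LysRS right of 0 on all 4 arrays, while TyrRS splits by dye.

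None of the 5 mitochondrial synthetases passed. PheRS-m was the lowest, at -0.12 and -0.19 in replicate 1 and -0.31 and -0.11 in replicate 2 (mean -0.18 ± 0.04), and IleRS-m averaged -0.10 ± 0.02. AspRS-m changed sign between replicates, with 0.16 in replicate 1 and -0.22 in replicate 2. AsnRS-m averaged 0.14 ± 0.08. MetRS-m had the highest mean, 0.35 ± 0.37, but this came from 0.12 and 0.06 in replicate 1 and from 0.61 on the 1 array with a value in replicate 2 (limma adjusted p = 0.105). The class median was -0.03, with 0.08 in replicate 1 and -0.12 in replicate 2. A further 6 mitochondrial enzymes had values in 1 replicate only and are not among the 53.

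For 2 amino acids both enzymes were measured. Cytoplasmic AsnRS was lower than mitochondrial AsnRS-m by 0.65 on the log2 scale, with differences of -0.54 in replicate 1 and -0.75 in replicate 2. For isoleucine the order was the other way, with IleRS above IleRS-m by 0.38, at 0.42 in replicate 1 and 0.33 in replicate 2. The medians of the cytoplasmic and mitochondrial classes differed by -0.16, at -0.30 in replicate 1 and -0.01 in replicate 2, so the gap between the classes rested on replicate 1. These differences are given as values without a test, since a sign permutation over 2 replicates cannot give a two-sided p under 0.5.

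Several synthetase genes carry names outside the rule. GluProRS, which encodes 1 polypeptide that charges both glutamate and proline tRNAs, had ratios of -0.38 and -0.46 in replicate 1 and -0.85 and -0.77 in replicate 2. Its mean of -0.61 ± 0.28 passed (limma adjusted p = 0.00349), and in size it lay beyond that of any of the 53 members. beta-PheRS, a subunit of the cytoplasmic phenylalanine enzyme, was at -0.31 ± 0.09 and did not pass. AIMP3, a scaffold protein of the complex that holds several synthetases together in animals, was at -0.14 ± 0.09. GatB, a subunit of the mitochondrial amidotransferase that makes glutaminyl-tRNA, passed with a positive ratio of 0.43 ± 0.35 (0.18 in replicate 1 and 0.68 in replicate 2, limma adjusted p = 0.0427). Of the 7 genes tested in this list, 1 passed on either side of 0 (28.6% in all, beside 22.8% of all genes), and the median was -0.10.

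eIF3, the largest initiation factor, is a scaffold on the small ribosomal subunit that holds the other factors and the mRNA. Its subunits leaned to the positive side: 11 of the 13 measured had a positive mean, with a class median of 0.18, at 0.13 in replicate 1 and 0.22 in replicate 2. Only eIF3i passed, which is 7.69% of the class, beside 22.8% of all genes. eIF3i (NCBI gene 33710), a WD-repeat subunit, had ratios of 0.26 and 0.27 in replicate 1 and 0.67 and 0.54 in replicate 2. All 4 arrays were positive, and replicate 2 stood above replicate 1 on both. Its mean was 0.44 ± 0.24, a 1.35-fold difference (95% interval 0.12 to 0.75, limma adjusted p = 0.0381). Its call was the weakest of the 3: it was lost when each array was centred on its own median (limma adjusted p = 0.0520), with only the mutant-in-Cy3 arrays (limma adjusted p = 0.0652) and without the array whose label puts the transgene on chromosome 2 (limma adjusted p = 0.0709). Over the alternatives tested with limma, turned signs left out, its adjusted p ran from 0.00926 to 0.0709. A gene-wise test did not pass it (adjusted p = 0.557).

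The subunits next in size did not pass. eIF3k was at 0.16 and 0.10 in replicate 1 and 0.53 and 0.60 in replicate 2 (mean 0.35 ± 0.30, limma adjusted p = 0.108), so its mean was set by replicate 2. eIF3l, which in other animals forms a module with eIF3k, was even across replicates, with 0.39 and 0.14 in replicate 1 and 0.35 and 0.24 in replicate 2 (mean 0.28 ± 0.02). eIF3g1, an RNA-binding subunit, averaged 0.27 ± 0.18, and eIF3m 0.21 ± 0.11. eIF3a, the largest subunit of the core, was at 0.46 and 0.44 in replicate 1 but at -0.15 and 0.08 in replicate 2, so that its mean of 0.21 ± 0.34 came from 1 replicate. The remaining positive means were those of eIF3h (0.18), eIF3f1 (0.16), eIF3e (0.16), eIF3c (0.11) and eIF3b (0.05). The 2 negative subunits were eIF3j, which in mammals and yeast is loosely bound to the rest of the complex, at -0.53 and -0.15 in replicate 1 and -0.28 on 1 array of replicate 2 (mean -0.31 ± 0.04, limma adjusted p = 0.147), and eIF3d1, a cap-binding subunit in mammals (-0.13 ± 0.05). Of the 13, 8 were positive and 2 negative in both replicates, and 6 of the 12 with values on all 4 arrays had 1 sign on all of them. The paralogs eIF3f2 and eIF3g2 had values in 1 replicate only, and eIF3d2 had none.

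**Figure D3:**
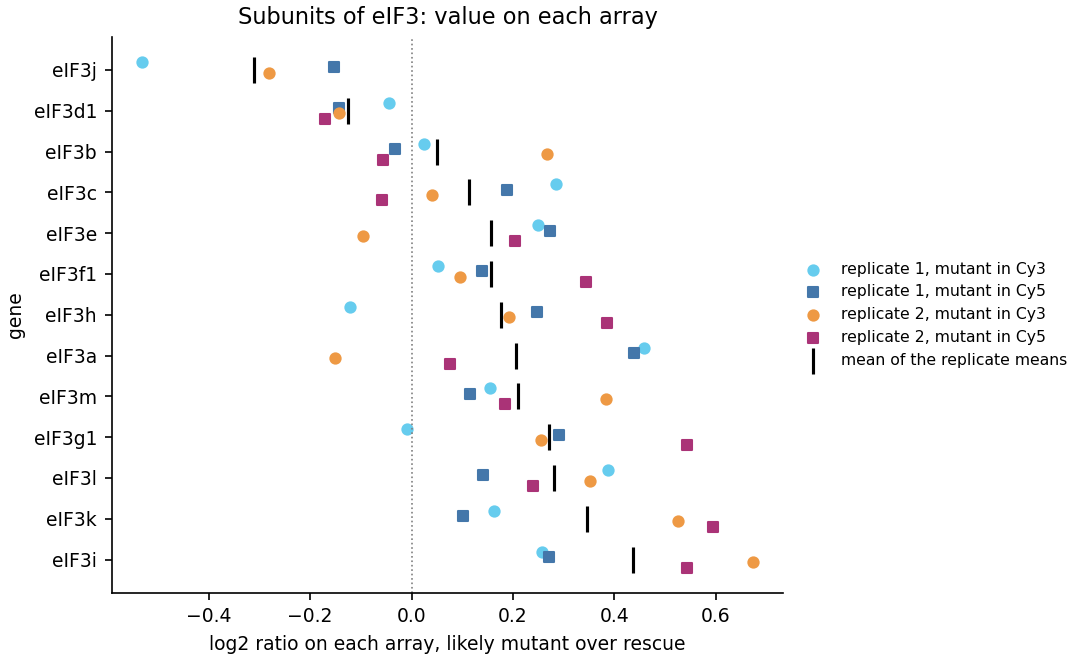
Log2 ratio of the 13 eIF3 subunits on each array (circles for the mutant in Cy3, squares for the mutant in Cy5, blue shades for replicate 1, orange and purple for replicate 2), with the mean as a black bar. Means run from -0.31 for eIF3j to 0.44 for eIF3i, and eIF3a shows its 2 replicates apart.

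The cap-binding group spread to both sides of 0 and none of its 5 members passed. eIF4E1, the main cap-binding protein, was at -0.09 and -0.04 in replicate 1 and 0.06 and 0.02 in replicate 2 (mean -0.01 ± 0.08, limma adjusted p = 0.965, 95% interval -0.33 to 0.30). Its 2 spots averaged 0.03 and -0.05. eIF4G1, the scaffold that joins eIF4E to eIF4A and eIF3, was at -0.22 and 0.03 in replicate 1 and -0.53 and -0.51 in replicate 2, with a mean of -0.31 ± 0.30 (limma adjusted p = 0.156) that rested on replicate 2. eIF4G2, a paralog needed in the male germline, averaged -0.11 ± 0.12. eIF4EHP, a cap-binding protein that represses translation in the embryo, was at 0.18 and -0.01 in replicate 1 and 0.71 and 0.28 in replicate 2 (mean 0.29 ± 0.29). For the germline paralogs eIF4E3 to eIF4E7 the array had spots but no value.

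The RNA helicase eIF4A was represented by 17 spots, which makes it the member with the most technical repeats. On the array of replicate 1 with the mutant in Cy3 all 17 spots were negative (-0.13 to -0.03), and on its dye swap all 17 were positive (0.16 to 0.30). In replicate 2 the array with the mutant in Cy3 had 8 negative and 9 positive spots (-0.09 to 0.19), and its dye swap had 17 positive ones (0.25 to 0.40). Averaged over spots, the 4 arrays read -0.10, 0.21, 0.01 and 0.31, and the mean was 0.11 ± 0.08 (limma adjusted p = 0.666). The gap between swapped arrays was thus 0.31 in replicate 1 and 0.30 in replicate 2, larger than the mean itself. Spots of 1 gene on 1 array repeat the same hybridisation and do not add to n. Gaps above 0.2 with the same sign in both replicates were also found for TyrRS (-0.23 and -0.40), eIF2A (0.35 and 0.39), eIF5 (0.27 and 0.20) and eIF3g1 (0.30 and 0.29), none of which passed the test. When the signs of the mutant-in-Cy5 arrays were turned, the shared ratio cancelled. The mean then scaled with the gap between the orientations, with opposite sign and smaller size. Tested on this value, eIF2A passed (-0.18, limma adjusted p = 0.0449), and limma's adjusted p of the other 4 genes ran from 0.0853 to 0.164.

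eIF2 carries the initiator tRNA, and eIF2B recharges it with GTP. The only eIF2 subunit measured, eIF2beta, was at -0.29 and -0.39 in replicate 1 and -0.32 and -0.46 in replicate 2. It was negative on all 4 arrays, with a mean of -0.37 ± 0.03, and lay just outside the threshold (limma adjusted p = 0.0818, 95% interval -0.68 to -0.05). With the replicate as a block it passed (limma adjusted p = 0.0452), as it did with the replicates scaled to 1 SD, with a dye term and on the mutant-in-Cy5 arrays, where limma's adjusted p ran from 0.0167 to 0.0358. Scaling passed 34.8% of all genes, and the dye term, which took the arrays as independent, 36.4%. eIF2beta did not pass on the mutant-in-Cy3 arrays (limma adjusted p = 0.257) or in a gene-wise test (adjusted p = 0.557). With all 4 arrays required, each spot alone, centred arrays or no chromosome 2 array, limma's adjusted p ran from 0.0907 to 0.101. The 5 subunits of eIF2B stayed near 0, with means of -0.12 for eIF2Bepsilon, -0.06 for eIF2Balpha, -0.05 for both eIF2Bbeta and eIF2Bdelta and -0.02 for eIF2Bgamma. eIF2Balpha had opposite signs in the replicates, -0.31 and 0.18. eIF2A and eIF2D, which in mammals can deliver initiator tRNA without eIF2, averaged 0.15 ± 0.18 and 0.28 ± 0.11. The median over these 8 genes was -0.05.

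The remaining initiation factors act on start codon choice and subunit joining, and none of the 4 passed. eIF5, which triggers GTP hydrolysis by eIF2, averaged 0.22 ± 0.21. eIF5B, which joins the subunits, was at -0.10 ± 0.07, and eIF1, which guards start codon choice, at -0.03 ± 0.15. eIF6, which keeps the large subunit from joining too early, was at -0.30 in replicate 1 and 0.28 in replicate 2, giving a mean of -0.01 ± 0.41.

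Elongation factors had the highest class median, 0.30, but it was 0.07 in replicate 1 and 0.43 in replicate 2, and none of the 4 genes passed. eEF5, the hypusine-bearing protein that relieves stalled ribosomes, was at 0.17 and 0.35 in replicate 1 and 0.74 and 0.34 in replicate 2. All 4 arrays were positive and the mean of 0.40 ± 0.19 was the nearest to the threshold on its outer side (limma adjusted p = 0.0582). With a dye term (limma adjusted p = 0.0432) or scaled replicates (limma adjusted p = 0.0161) it passed. The dye term took the arrays as independent, and these settings passed 36.4% and 34.8% of all genes. With a replicate block, centred arrays, all 4 arrays required, each spot alone, 1 dye orientation alone or no chromosome 2 array, eEF5 did not pass. There limma's adjusted p ran from 0.0627 to 0.102. eEF1delta, part of the exchange factor that reloads eEF1alpha, was at -0.05 and 0.13 in replicate 1 and 0.79 and 0.70 in replicate 2. Its mean of 0.39 ± 0.50 came almost wholly from replicate 2 (limma adjusted p = 0.0740), and its 2 spots, at 0.31 and 0.47, shared this split. eEF1gamma, of the same complex, averaged 0.21 ± 0.15.

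eEF1alpha2, which brings charged tRNAs to the ribosome, was the 1 elongation factor with a negative mean, at -0.16 and -0.06 in replicate 1 and -0.40 and -0.32 in replicate 2 (mean -0.24 ± 0.18, limma adjusted p = 0.289). eEF1alpha1, a close paralog, had no named spot, and which of the pair this spot detects was not tested. The release factors lay on either side of 0. eRF1, which reads stop codons, was at -0.20 and -0.07 in replicate 1 and 0.25 and 0.21 in replicate 2, so that its replicates had opposite signs (mean 0.05 ± 0.26, limma adjusted p = 0.859). Its partner, the GTPase eRF3, was at -0.07 on 1 array of replicate 1 and at -0.45 and -0.33 in replicate 2 (mean -0.23 ± 0.23, limma adjusted p = 0.307).

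The replicates can be set side by side for all 53 members. Both replicates had the same sign for 43 of them, as for 4514 of the 5752 genes tested. Of the 41 members with values on all 4 arrays, 19 (46.3%) had 1 sign on all of them, against 63.0% of the 4318 such genes overall. The SD over members was 0.21 in replicate 1 and 0.31 in replicate 2, and 34 members had the ratio of larger size in replicate 2. Replicate means correlated across members at r = 0.58, with r = 0.79 across the 17 synthetases and r = 0.43 across the 36 factors. For 26 members (49.1%) the gap between the replicates exceeded the mean ratio, close to the 47.3% of all genes. By class this held for 5 of 5 cap-binding genes, 4 of 4 of the group of eIF1, eIF5, eIF5B and eIF6, and 2 of 2 release factors. It also held for 3 of 4 elongation factors, 6 of 13 eIF3 subunits and 3 of 8 genes of the eIF2 group. Among synthetases the counts were 2 of 5 mitochondrial and 1 of 12 cytoplasmic enzymes.

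**Figure D4:**
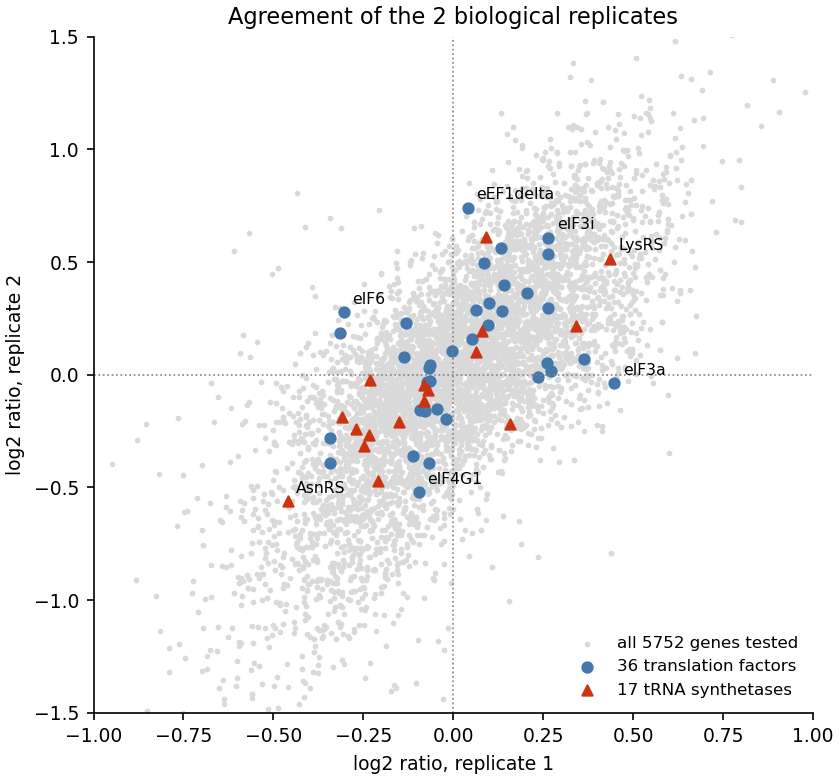
Log2 ratio in replicate 1 against replicate 2 for the 36 translation factors (blue circles), the 17 synthetases (red triangles) and all 5752 genes tested (grey), of which 37 lie outside the axes. AsnRS, LysRS and eIF3i lie away from 0 in both replicates, whereas eEF1delta and eIF4G1 depart from 0 mainly in replicate 2 and eIF3a in replicate 1.

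Differences between classes were computed within each replicate. The median over all 30 initiation factors exceeded that of the cytoplasmic synthetases by 0.27, at 0.25 in replicate 1 and 0.19 in replicate 2. The eIF3 median exceeded that of the cap-binding group by 0.19, at 0.15 and 0.18. Both differences had 1 sign in both replicates, which with n = 2 is not a test.

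Genes that act on these factors were examined beside them. Of 11 translation partners outside the name rule, 2 passed (18.2%, below the share over all genes), both with positive ratios. Paip2, which inhibits the poly(A)-binding protein, was at 0.27 and 0.65 in replicate 1 and 0.71 and 0.98 in replicate 2 (mean 0.65 ± 0.27, limma adjusted p = 0.00197). Pdcd4, known from mammals as an inhibitor of eIF4A, was at 0.52 and 0.59 in replicate 1 and 0.40 and 0.47 in replicate 2 (mean 0.49 ± 0.08, limma adjusted p = 0.0175). MCTS1, which helps restart ribosomes, was at 0.33 ± 0.34, and NAT1, a relative of eIF4G, at -0.33 ± 0.22, and these did not pass. The median of the 11 was 0.02.

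Repressors and TOR pathway genes had 8 of 9 means above 0, and their median was 0.23, or 0.31 and 0.19 by replicate. Lk6, the kinase that phosphorylates eIF4E, was the only one to pass (11.1% of the list, beside 22.8% of all genes). It was at 0.52 and 0.48 in replicate 1 and 0.62 and 0.75 in replicate 2 (mean 0.59 ± 0.13, limma adjusted p = 0.00432). Tsc1, which restrains TOR, was at 0.33 ± 0.20, the kinase S6k at 0.31 ± 0.02 and the TOR partner Lst8 at 0.26 ± 0.18. The 6 genes of the eIF2 kinase and stress list were all above 0, with a median of 0.19. None passed, where 22.8% of all genes did (PEK 0.26, Gcn2 0.25, Atf6 0.22 and Ire1 0.17). Gcn2, the kinase activated by uncharged tRNA, was at 0.48 in replicate 1 and 0.02 in replicate 2.

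Markers of late and early embryos were read on the same arrays. All 9 muscle genes tested had negative ratios, the median being -0.55 (-0.25 and -0.83 by replicate), and 6 passed (66.7%). Of 12 cuticle genes, 11 were negative, with a median of -0.76 (-0.44 and -0.95), and 9 passed (75.0%). Maternal and germ plasm transcripts had 13 of 14 ratios above 0, with a median of 0.28 (0.12 and 0.42), and 4 passed (28.6%), a share near the 22.8% of all genes. The medians of these marker lists were farther from 0 in replicate 2, which had the wider ratios over all genes. The part of embryo age or tissue content in the values of the translation genes was not tested.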

How the data were processed

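The authors' deposited table holds 1 log ratio per spot and array, read here as log2. No source used here gives its base, direction, background correction, normalization or rule for empty spots. The submitters' processing notes name limma, without a version. All arrays correlated positively, so no sign was turned, and n is 2. Of 16416 spots, 13164 had 1 gene symbol in the platform annotation and 6021 of these had a value in each replicate. Symbols were updated through RefSeq's Release 6 gene table.

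Spots were averaged per gene and arrays per replicate, and tested with lmFit and eBayes (limma 3.58.1, R 4.3.3, two-sided, Benjamini-Hochberg). Variance was largely pooled over genes (62.9 prior against 1 residual degree of freedom). The code was run on simulated data drawn from limma's own variance model, which is not a test of the calls made here. Members, lists and classes were chosen with earlier results of these data known. Named in full were members past the test, the 3 nearest the threshold on either side and 9 set factors. Other members are given by mean, and other lists by at most 4 genes with the smallest adjusted p. Alternatives covered arrays, spots, dye, sign, centring, scale, variance and replicates. Spot intensities were not used, and the number of arrays limits precision.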

Additional observations from a re-analysis of the deposited data

How the results depend on the processing

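The count of 3 members past the test (1 negative, 2 positive) rests on pooled variance: a gene-wise test passed 0 members and 0 genes in all, with 461 genes at an unadjusted p under 0.05. With the replicate block (numbers label separate extractions, and arrays of 1 number share RNA, with a block correlation of 0.64), 4 of 41 members passed, 2 of them negative, eIF2beta being added, and 25.2% of all genes passed. A dye term, with the arrays taken as independent, gave 9 of 41 (5 negative, 4 positive) where 36.4% of all genes passed. Arrays with the mutant in Cy3 alone gave 1 of 49 (0 negative, 1 positive; 18.5% of all genes) and those with the mutant in Cy5 alone 6 of 44 (2 and 4; 23.3% of all genes). Scaling the replicates to 1 SD gave 7 of 53, of which 4 were negative, where 34.8% of all genes passed. Centring the arrays, or leaving out the array labelled chromosome 2 (added after the data were seen), left 2 members, AsnRS (negative) and LysRS (positive). Of all genes, 21.1% passed with centred arrays and 16.1% without the chromosome 2 array. Requiring all 4 arrays passed the same 3 genes as the main test, where 22.2% of all genes passed. Testing each spot alone passed 4 of 72 member spots (1 negative, 3 positive), where 21.5% of all spots passed. Taken as the median adjusted p over the spots of a gene, that setting again passed the same 3 genes. Turning the sign of the arrays with the mutant in Cy5 cancels, by construction, any ratio that swapped arrays share, so its values bear on the dyes and not on the stability of the results. Under this turn 1 of 41 members passed (0 positive), where 2.96% of all genes did. It was eIF2A, at -0.18, which was not among the 3 of the main test, and AsnRS stood at 0.0477. These values scale with the gap between the dye orientations, with its sign turned, and are not a reversed ratio of mutant to rescue. The same turn moved the medians of eIF3 to 0.0133, eEF to 0.0176, cytoplasmic synthetases to 0.0082 and eRF to -0.0234. It moved the difference of all eIF from cytoplasmic synthetases to -0.0159 and that of eIF3 from eIF4 to 0.0157. Where only eRF1 was measured, the eRF value was 0.0481 on all 4 arrays and with the dye term and 0.0247 with the mutant in Cy3 alone (the turned value is also of eRF1). Over both eRF genes the median was -0.0644 with the mutant in Cy5 alone and -0.0740 without the chromosome 2 array. With the mutant in Cy5 alone the eIF3 median was 0.24 and its difference from eIF4 0.25. That difference was 0.0764 with each spot alone (eIF4 median 0.0904, of which eIF4A holds most spots) and 0.23 with scaled replicates. The difference of all eIF from cytoplasmic synthetases was 0.32 on all 4 arrays and with the dye term, and 0.20 with the mutant in Cy3 alone. Leaving out 1 replicate at a time gave ranges of -0.0193 to 0.0428 for the eIF4 median, 0.19 to 0.25 for all eIF against cytoplasmic synthetases and 0.15 to 0.18 for eIF3 against eIF4. Counts have no test on 1 replicate.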

Other observations

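Enzymes that modify tRNA or the elongation factors were not described above. Among 14 genes of tRNA processing and modification the log2 ratios had a median of 0.10, or -0.03 and 0.24 by replicate, and 2 genes (14.3%, where 22.8% of all genes passed) passed the limma test with positive ratios. RluA-2, named as a pseudouridine synthase, was at 0.31 on 1 array of replicate 1 and at 0.70 and 0.65 in replicate 2 (mean 0.49 ± 0.26, limma adjusted p = 0.0193). Tailor, an enzyme that adds uridines to RNA ends, was at 0.38 and 0.28 in replicate 1 and 0.53 on 1 array of replicate 2 (mean 0.43 ± 0.14, limma adjusted p = 0.0387). Dph5, an enzyme of the diphthamide modification of eEF2, was at 0.14 in replicate 1 and 0.66 in replicate 2 (mean 0.40 ± 0.37, limma adjusted p = 0.0594). nero, the enzyme of the last step of hypusine formation on eEF5, was at 0.05 and 0.73 (mean 0.39 ± 0.48, limma adjusted p = 0.0751). Neither of these last genes passed, and both stood above 0 mainly in replicate 2, as eEF1delta did.

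Mitochondrial translation factors had a median of 0.02 over 5 genes, and 1 passed (20.0%, a share near the 22.8% of all genes). mEFTu1, which delivers charged tRNAs to the mitochondrial ribosome, was at -0.47 and -0.22 in replicate 1 and -0.61 and -0.55 in replicate 2 (mean -0.47 ± 0.17, limma adjusted p = 0.0258). Its exchange factor mEFTs was negative on all 4 arrays but did not pass (mean -0.31 ± 0.18, limma adjusted p = 0.146). The other factors tested included ico at 0.09 and mRF1 at 0.10.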
